A study of Mus musculus with 6 samples.

Results

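The genes described here encode the variable, joining and constant parts of antibodies, whose transcripts were counted by sequencing mRNA from epididymal white fat, a pad beside the testis. They were chosen as the rows of the deposited gene table with the symbols of kappa and lambda variable, joining and constant segments, of heavy variable segments and of the heavy constant genes Ighm, Ighd, Ighg, Igha and Ighe, with a total of 10 or more counts over all 6 libraries. Of 45777 genes in the table, 371 carry such symbols and 157 reached that total: 7 heavy constant, 62 heavy variable (Ighv), 1 kappa constant (Igkc), 74 kappa variable (Igkv), 4 kappa joining (Igkj), 3 lambda constant (Iglc), 3 lambda variable (Iglv) and 3 lambda joining (Iglj) genes. Of the rest, 156 had 0 counts in every library and 58 had 1 to 9 in total. The segments just inside the limit, with 10 counts in all, were Ighv3-8, Ighv5-9-1, Igkv4-58 and Igkv6-14, and those just outside it, with 9, were Ighv1-34, Ighv5-4 and Igkv11-125. There were 3 libraries labelled KO, from mice with Adipoq-Cre and Pak4 flox/flox, and 3 labelled WT, from mice with Pak4 flox/flox alone. All were C57BL/6 mice after 24 h without food, and both genotypes carry the floxed alleles. The Adipoq promoter drives Cre in adipocytes, which do not make antibodies. Ages are not given in the sources used here. Adipocytes are the cell type in the labels, but by the protocol whole fat was excised. The libraries are written KO 1 to KO 3 and WT 1 to WT 3, and whether each comes from its own mouse is not in the labels, so the spread behind the p-values may be technical.

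An antibody is made of heavy and light chains, and each developing B cell assembles its own heavy and light chain genes by joining a variable segment, a joining segment and, in the heavy chain, a diversity segment. The joined variable part is spliced to a constant gene, first Ighm and Ighd, which give IgM and IgD. After class switching it is spliced to an Ighg, Ighe or Igha gene, which give IgG, IgE and IgA. Light chains use either the kappa or the lambda locus. Descendants of a B cell keep its joined segments, and plasma cells, which secrete antibody, hold far more of these transcripts than resting B cells. Fat depots of the body cavities hold B cells of the B-1 type, many of which make IgM, beside conventional B-2 cells.

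In mice, the variable pairs Ighv11-2 with Igkv14-126 and Ighv12-3 with Igkv4-91 are known from B-1 cells that bind phosphatidylcholine. The last 240 bases of their V exons are shown because the usage of these segments is followed below, together with Igkv1-135, the most abundant kappa segment of KO 2. Sequences and coordinates of the exons are from GENCODE M21 on mm10. The part shown of Ighv11-2 lies at chr12:114048241-114048480 and that of Ighv12-3 at chr12:114366521-114366760, both on the minus strand. That of Igkv14-126 lies at chr6:67896403-67896642 and that of Igkv1-135 at chr6:67610269-67610508, both on the plus strand, and that of Igkv4-91 at chr6:68768555-68768794 on the minus strand. Each is read 5′ to 3′ on its own strand, and the capitals mark the last 30 bases, the end that recombination joins to the next segment.
Ighv11-2: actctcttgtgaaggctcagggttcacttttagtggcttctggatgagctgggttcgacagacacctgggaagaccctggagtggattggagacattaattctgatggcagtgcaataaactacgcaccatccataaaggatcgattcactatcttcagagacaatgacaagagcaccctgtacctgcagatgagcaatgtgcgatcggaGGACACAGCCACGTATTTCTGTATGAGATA
Igkv14-126: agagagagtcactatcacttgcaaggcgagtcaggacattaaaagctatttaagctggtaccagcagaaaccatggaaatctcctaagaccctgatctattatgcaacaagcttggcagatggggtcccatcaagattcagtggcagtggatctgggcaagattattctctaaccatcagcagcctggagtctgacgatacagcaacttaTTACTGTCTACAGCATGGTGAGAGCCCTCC
Ighv12-3: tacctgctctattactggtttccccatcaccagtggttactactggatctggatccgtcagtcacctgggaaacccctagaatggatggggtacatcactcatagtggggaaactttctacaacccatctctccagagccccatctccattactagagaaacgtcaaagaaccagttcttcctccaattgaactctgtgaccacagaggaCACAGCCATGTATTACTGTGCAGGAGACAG
Igkv4-91: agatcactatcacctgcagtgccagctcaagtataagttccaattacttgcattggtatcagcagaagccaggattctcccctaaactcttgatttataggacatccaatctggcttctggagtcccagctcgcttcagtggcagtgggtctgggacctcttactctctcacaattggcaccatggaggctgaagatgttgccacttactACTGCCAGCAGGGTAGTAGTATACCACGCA
Igkv1-135: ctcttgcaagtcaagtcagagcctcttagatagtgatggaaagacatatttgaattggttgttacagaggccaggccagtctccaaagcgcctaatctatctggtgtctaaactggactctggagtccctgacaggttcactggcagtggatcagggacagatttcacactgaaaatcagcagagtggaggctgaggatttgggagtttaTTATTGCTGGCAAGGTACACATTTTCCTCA

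The 4 kappa joining members are shown because which of them led differed between libraries. Aligned at their 3′ ends over 38 bases, they are alike at 24 positions, and capitals mark the 14 at which they are not all alike. Igkj1 lies at chr6:70722562-70722599, Igkj2 at chr6:70722916-70722954, Igkj4 at chr6:70723548-70723585 and Igkj5 at chr6:70723886-70723923, all on the plus strand of mm10.
Igkj1: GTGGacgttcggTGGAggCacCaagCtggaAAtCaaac
Igkj2: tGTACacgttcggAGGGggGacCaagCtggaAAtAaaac
Igkj4: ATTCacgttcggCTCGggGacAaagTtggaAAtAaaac
Igkj5: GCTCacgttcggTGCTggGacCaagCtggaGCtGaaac

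Many variable segments are near copies of each other. Of 61 Ighv members with a sequence, 38 had a V exon at least 95% identical to that of another Ighv row and 8 one at least 98% identical, and of 71 Igkv members 37 and 6 did. Ighv11-2 was 98.7% identical to Ighv11-1, Igkv8-19 97.8% to Igkv8-28, Iglv1 97.0% to Iglv2 and Iglc2 96.2% to Iglc3, while Igkv14-126 was 90.9% identical to its nearest row, Igkv14-111. The sources used here do not say how reads that match several rows were counted, and counts of single segments are uncertain where a near copy exists. The table lists 6 members as variable pseudogenes, among them Igkv14-126, Ighv7-1 and Ighv7-3, which GENCODE M21 types as genes. In GENCODE M21, Igkc overlaps Gm30211 on the same strand, Iglc1 and Iglc3 overlap 2010309G21Rik on the opposite strand, and Ighm overlaps no other gene. Whether the counting used strand is not given.

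Pak4, the targeted gene, had 815, 744 and 675 counts in KO 1, 2 and 3, against 339, 337 and 358 in WT 1, 2 and 3. The 3 libraries labelled KO were above all 3 labelled WT (log2 fold change 0.96 ± 0.14 SE, adjusted p 0.0898 in edgeR), so the targeted gene goes against the labels, and every direction below is between libraries by their labels. Total counts were 62854465 to 72005658 per library, of which the members took 0.0209% to 0.0437%. KO 1 stood apart from the others of its label: its counts differed least from WT 1, with a chi-square of 64.3 per degree of freedom, against 109.9 from KO 2 and 173 from KO 3. Without KO 1 1016 genes passed the threshold in edgeR, against 3 with it, so calls that appear without KO 1 are given beside the gene. Adipocyte markers were abundant in every library, at a summed 28926 to 32024 CPM in the libraries labelled KO and 31503 to 37910 CPM in those labelled WT. Of 18 markers of mature B cells none was at 0 in all libraries, so B cell transcripts were present in this tissue.

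No immunoglobulin gene passed the threshold of an adjusted p of 0.05. Of the 157 members, 65 had enough counts to be tested and 92 did not, and 0 of the 65 passed in the quasi-likelihood test of edgeR, with p-values adjusted by Benjamini-Hochberg over all 17820 genes tested, of which 0.0168% passed. At an unadjusted p under 0.05, 9 members were higher and 1 was lower in the libraries labelled KO, against a background of 9.66% of all genes higher and 9.71% lower. DESeq2, a second count test, called 5 members, with Iglv1, Igkv6-15, Igkv14-111 and Ighv3-6 higher and Ighm lower, beside 2.89% of genes higher and 4.27% lower. In edgeR without KO 1, 1 member passed, Ighm, which was lower, beside 2.08% of genes higher and 3.49% lower. Over all 157 members, counts scaled by TMM to counts per 1000000 (CPM) had a higher mean in the libraries labelled KO for 105 (66.9%), against 52.2% of all genes with 10 or more counts. Groups that did not overlap were no more frequent than in the background: 12 members had every KO library above every WT library (7.64%, against 12.2% of genes) and 2 had every KO library below (1.27%, against 11.5%). The 65 tested members had a median log2 fold change of 0.60, beside 0.02 over all genes tested, and 46 lay above 0. These members share cells and libraries and are not independent, and the ones tested were kept in part for being high in 1 group.

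**Figure D1:**
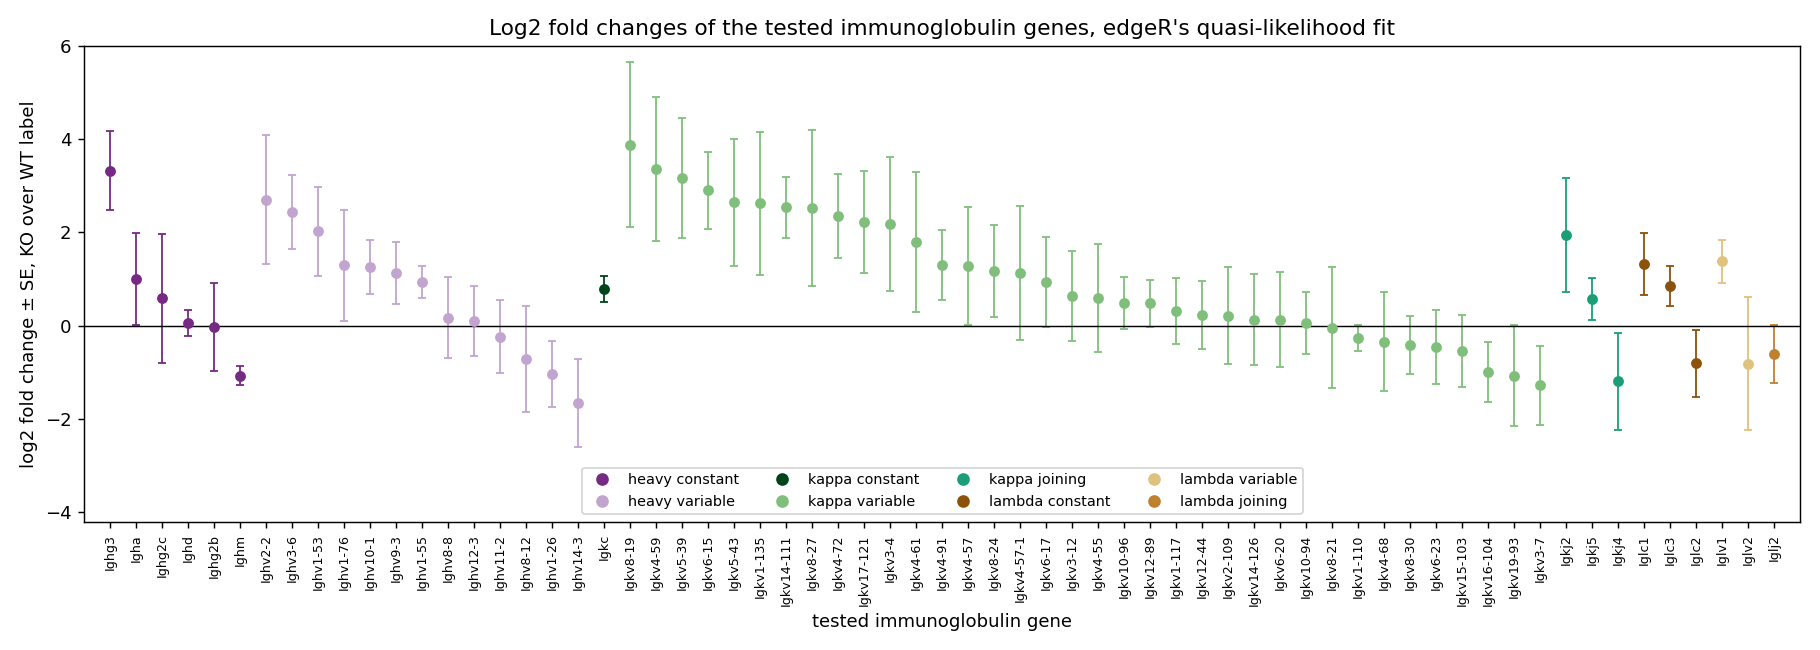
Log2 fold change (KO over WT label, ± SE, edgeR) of the 65 tested immunoglobulin genes, grouped by class and ordered within it. Ighm, at -1.07, has the smallest error below 0, while most kappa variable segments lie above 0 with errors of up to 1.76.

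Ighm, the IgM heavy chain gene (chr12:113418826-113422730 in the RefSeq annotation of GRCm38.p6), was by far the most counted member. Ighm had 11566, 10083 and 8009 counts in KO 1, 2 and 3, against 13845, 22093 and 20441 in WT 1, 2 and 3. Every library labelled KO lay below every library labelled WT. The means were 141 ± 32.3 CPM in the libraries labelled KO and 296 ± 60.9 CPM in those labelled WT (SD, n = 3 each), a log2 fold change of -1.07 ± 0.21 with an adjusted p of 0.123 in edgeR. Of the other fits, DESeq2 called it (adjusted p 1.89e-04), as did edgeR without KO 1 (log2 fold change -1.23 ± 0.22, adjusted p 0.0373). With any other library left out it did not pass, and the adjusted p of these edgeR fits ran up to 0.414. The other alternative fits described below did not call it either. In the deposited TPM, which are scaled by transcript length, Ighm stood at 217, 192 and 135 in KO 1, 2 and 3, against 278, 389 and 426 in WT 1, 2 and 3. In a bulk sample, fewer cells of a type and less RNA per cell cannot be told apart.

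Ighd, the IgD heavy chain gene, which mature B cells splice from the same transcript as Ighm, showed no such order. It had 150, 126 and 107 counts in KO 1, 2 and 3, against 134, 122 and 77 in WT 1, 2 and 3. The groups overlapped (log2 fold change 0.06 ± 0.27, adjusted p 0.928 in edgeR). Summed over 18 mature B cell markers, the level was 35.1, 40.1 and 43.0 CPM in KO 1, 2 and 3, against 42.5, 22.1 and 23.5 CPM in WT 1, 2 and 3. WT 1 lay among the libraries labelled KO on that sum, and the part of B cell number in the Ighm difference was not tested.

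The switched heavy chains differed more between single libraries than between labels. Igha, the IgA heavy chain gene, had 123, 1776 and 376 counts in KO 1, 2 and 3, against 303, 185 and 519 in WT 1, 2 and 3. KO 2 alone held more than all other libraries together, and the other 5 overlapped (log2 fold change 1.00 ± 0.98, adjusted p 0.598 in edgeR, and -0.65 without KO 2). Ighg2b had 282, 362 and 95 counts in KO 1, 2 and 3, against 28, 513 and 166 in WT 1, 2 and 3, with WT 2 highest, WT 1 lowest and a log2 fold change of -0.03 ± 0.93. Ighg2c, the IgG2 gene of C57BL/6 mice that stands in place of Ighg2a, had 14, 209 and 6 counts in KO 1, 2 and 3, against 44, 5 and 86 in WT 1, 2 and 3. KO 2 was again highest, and without it the log2 fold change of Ighg2c was -2.34, against 0.59 ± 1.38 with it. Ighg1 had too few counts to be tested, with 10, 27 and 6 in KO 1, 2 and 3, against 8, 33 and 0 in WT 1, 2 and 3. Ighe had 0 counts in all 6 libraries, and the 3 counts that a 0 allows would be 0.0131% to 0.0348% of a library's heavy constant counts.

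Ighg3 was the switched gene whose groups did not overlap. It had 43, 12 and 27 counts in KO 1, 2 and 3, against 3, 0 and 4 in WT 1, 2 and 3. Every library labelled KO was above every library labelled WT, with means of 0.391 ± 0.235 CPM in the libraries labelled KO and 0.0381 ± 0.0339 CPM in those labelled WT (SD, n = 3 each). The log2 fold change was 3.33 ± 0.85 and did not pass (adjusted p 0.150 in edgeR, 0.120 to 0.412 with 1 library left out). Ighg3 encodes IgG3, an isotype that mouse B cells make mainly against polysaccharide antigens.

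Shares of heavy constant counts within a library, which do not depend on its scaling, showed Ighm leading everywhere. Counts of Ighm were 11.5 to 82.7 times the summed Ighv counts of a library. Whether all of them come from joined heavy chain genes was not tested. Ighm made up 94.9%, 80.1% and 92.8% of heavy constant counts in KO 1, 2 and 3, against 96.4%, 96.3% and 96.0% in WT 1, 2 and 3. Igha and Ighg together made up 3.87%, 18.9% and 5.91% in KO 1, 2 and 3, against 2.69%, 3.21% and 3.64% in WT 1, 2 and 3. All 3 libraries labelled KO lay above those labelled WT on this switched share, KO 1 just above WT 3 and KO 2 by far the most. The share of Ighd was higher too, at 1.23%, 1.00% and 1.24% in KO 1, 2 and 3, against 0.933%, 0.532% and 0.362% in WT 1, 2 and 3. Exact binomial 95% intervals of these shares reached at most 0.702 percentage points to either side. Such intervals treat each read as independent and cover counting error only, not the spread between libraries. Any PCR copies among the reads would make them too narrow. Summed CPM of the switched genes overlapped between labels, at 7.02, 34.2 and 6.85 in KO 1, 2 and 3, against 6.30, 10.98 and 12.6 in WT 1, 2 and 3. Within the switched counts, Igha took 26.1%, 74.4% and 73.7% in KO 1, 2 and 3, against 78.5%, 25.1% and 67.0% in WT 1, 2 and 3. KO 1 and WT 2 were instead led by Ighg2b, with 59.7% and 69.7%.

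**Figure D2:**
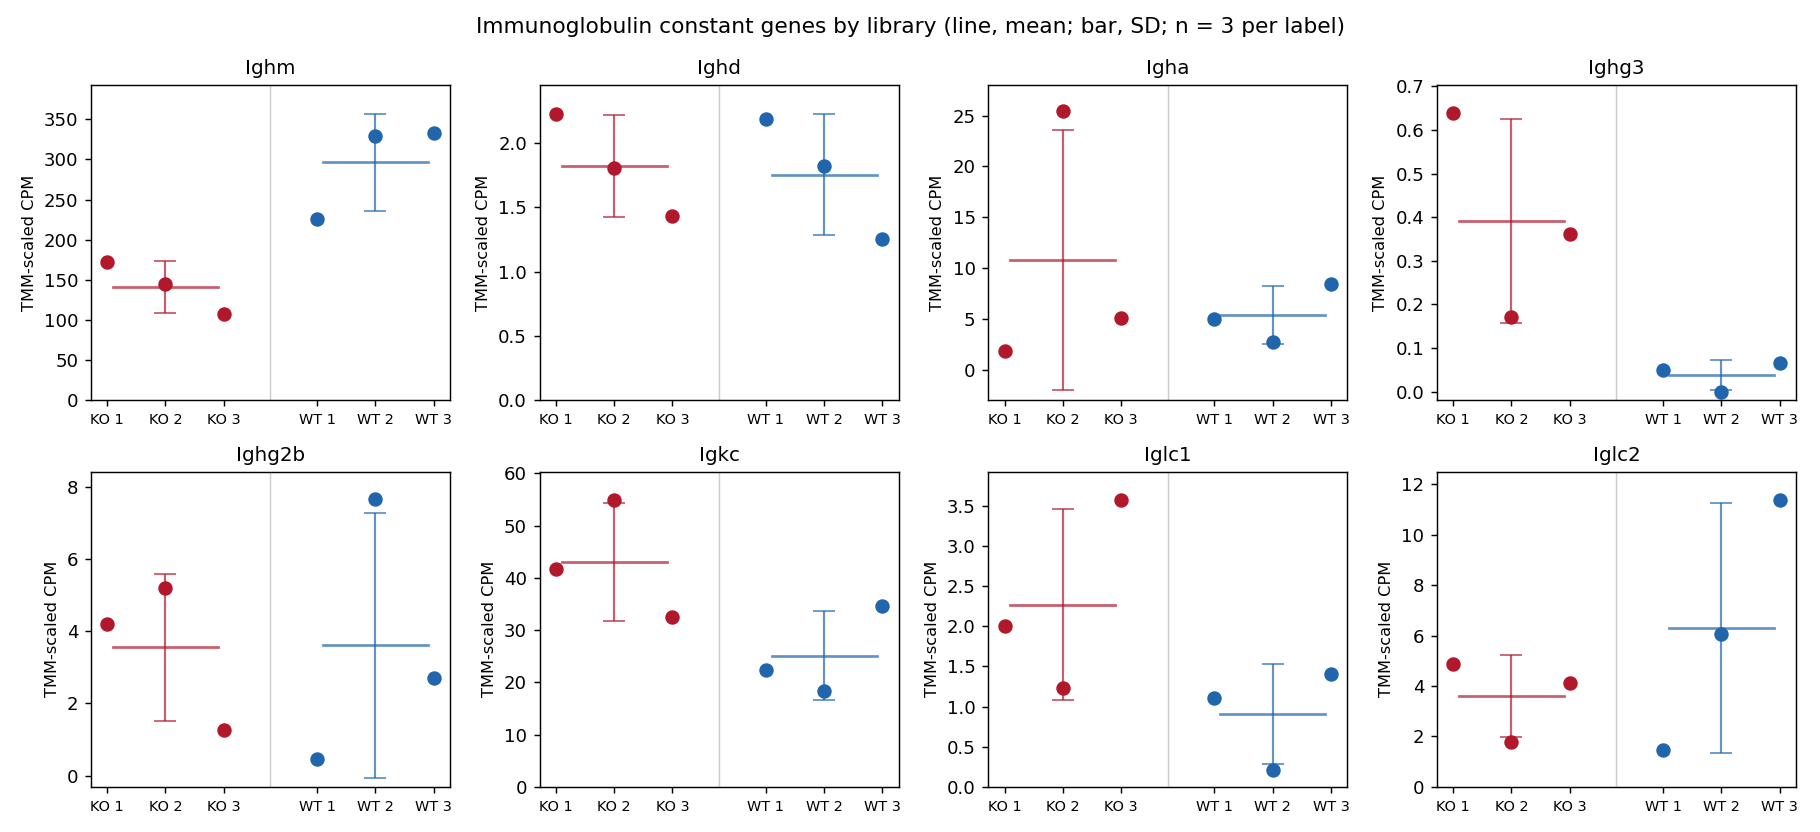
TMM-scaled CPM of 8 constant genes in each library, with the mean (line) and SD (bar) of the 3 libraries of each label, KO red and WT blue. Ighm is lower and Ighg3 higher in every library labelled KO, Igha is led by KO 2 at 25.5 CPM, and the other genes overlap between labels.

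Igkc, the kappa constant gene (chr6:70726435-70726754), stood on the other side of Ighm. It had 2807, 3821 and 2419 counts in KO 1, 2 and 3, against 1365, 1228 and 2123 in WT 1, 2 and 3. In CPM the groups overlapped, since WT 3 at 34.6 lay above KO 3 at 32.5. The means were 43.0 ± 11.2 CPM in the libraries labelled KO and 25.1 ± 8.50 CPM in those labelled WT, a log2 fold change of 0.78 ± 0.28 that did not pass (adjusted p 0.209 in edgeR).

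The lambda constant genes followed no common direction. Iglc1 had 135, 86 and 266 counts in KO 1, 2 and 3, against 68, 14 and 86 in WT 1, 2 and 3 (log2 fold change 1.33 ± 0.67). Iglc3 had 144, 94 and 97 counts in KO 1, 2 and 3, against 83, 28 and 54 in WT 1, 2 and 3 (0.85 ± 0.43). Both overlapped between labels in CPM, and neither passed in edgeR (adjusted p 0.312 and 0.306). Iglc2 had 329, 124 and 306 counts in KO 1, 2 and 3, against 89, 407 and 697 in WT 1, 2 and 3, with the highest and the lowest library both labelled WT (-0.81 ± 0.71, adjusted p 0.553, and -1.28 to -0.08 with 1 library left out). Lambda took 17.8%, 7.37% and 21.7% of the light constant counts in KO 1, 2 and 3, against 14.95%, 26.8% and 28.3% in WT 1, 2 and 3, and the groups overlapped.

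Ighm stood in a lower ratio to Igkc and to the summed Ighv segments in the libraries labelled KO, while Igkc over the kappa variable segments overlapped between labels. On the deposited TPM scale, the ratio of Ighm to Igkc was 0.88, 0.57 and 0.71 in KO 1, 2 and 3, against 2.18, 3.86 and 2.07 in WT 1, 2 and 3. The ratio of Ighm to the summed Ighv segments was 3.73, 2.42 and 3.06 in KO 1, 2 and 3, against 6.09, 18.5 and 7.35 in WT 1, 2 and 3. Neither ratio overlapped between labels, and within the libraries labelled WT the second was highest in WT 2, which had the fewest Ighv counts, 267. The heavy constant genes other than Ighm stood to the summed Ighv segments at 0.26, 0.75 and 0.30 in KO 1, 2 and 3, against 0.30, 0.89 and 0.39 in WT 1, 2 and 3, which overlapped. Igkc stood to the summed Igkv segments at 1.27, 1.52 and 1.39 in KO 1, 2 and 3, against 1.52, 1.64 and 1.35 in WT 1, 2 and 3, which overlapped as well. The lambda constant genes stood to the summed Iglv segments at 1.78, 1.69 and 1.71 in KO 1, 2 and 3, against 2.71, 2.82 and 1.28 in WT 1, 2 and 3, with the highest and the lowest libraries labelled WT. The difference between labels in constant over variable transcripts was thus seen for Ighm and not for the sum of the other heavy constant genes or for the kappa locus. No test was run on these ratios, since the smallest two-sided p that an exact permutation of 3 against 3 libraries can give is 0.1.

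**Figure D3:**
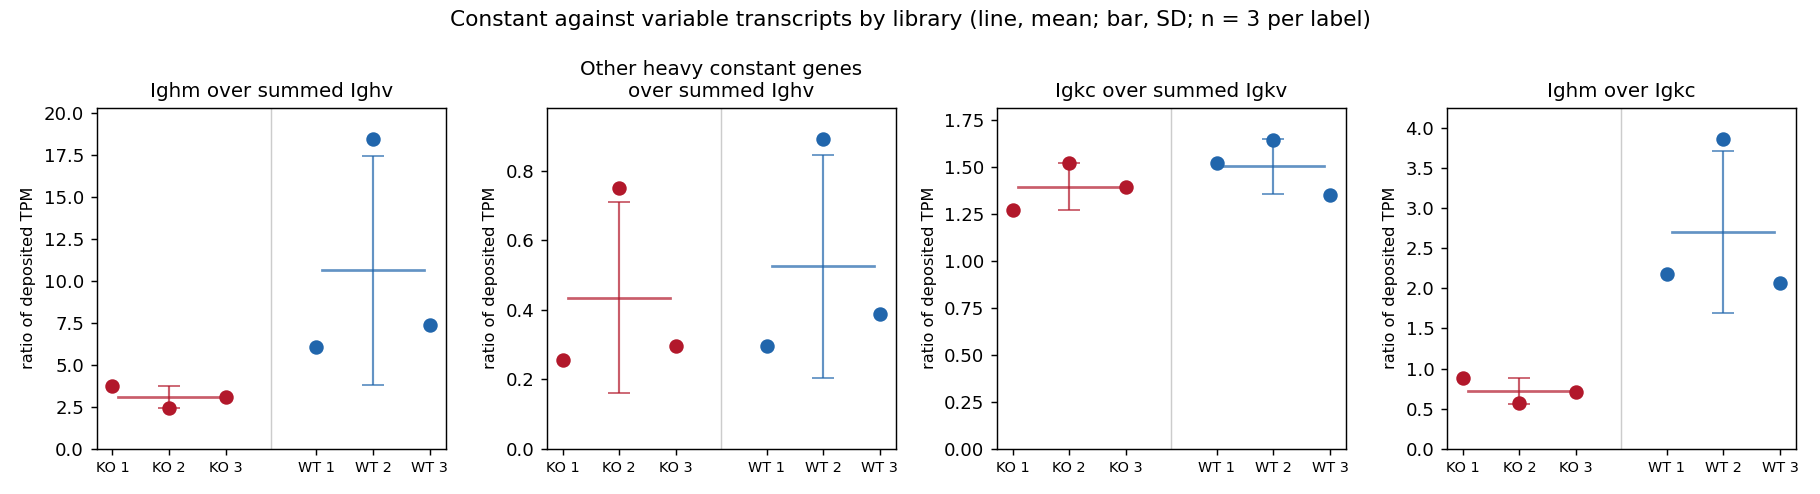
Ratios of deposited TPM in each library, with the mean (line) and SD (bar) of the 3 libraries of each label, KO red and WT blue. Ighm over summed Ighv and Ighm over Igkc are lower in every library labelled KO, while the other heavy constant genes over Ighv and Igkc over Igkv overlap.

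In CPM, the sum of the heavy constant class repeats Ighm, which held 80.1% to 96.4% of its counts. Heavy constant genes summed to 181, 181 and 116 CPM in KO 1, 2 and 3, against 234, 342 and 347 CPM in WT 1, 2 and 3, every KO library below every WT library (log2 ratio of the means -0.95). Without Ighm they summed to 9.25, 36.0 and 8.28 CPM in KO 1, 2 and 3, against 8.49, 12.8 and 13.9 CPM in WT 1, 2 and 3. That sum overlapped between labels, with a log2 ratio of 0.61. Ighv segments summed to 10.2, 12.6 and 7.84 CPM in KO 1, 2 and 3, against 7.98, 3.98 and 10.3 CPM in WT 1, 2 and 3 (0.46). Igkv segments summed to 36.9, 40.5 and 26.1 CPM in KO 1, 2 and 3, against 16.6, 12.5 and 28.7 CPM in WT 1, 2 and 3 (0.84). Both variable sums overlapped: WT 3 lay above KO 3 in both, and for Ighv also above KO 1, with WT 1 above KO 3. All members together stood at a log2 ratio of -0.52 in CPM, of 0.61 without Ighm, and of 0.12 in TPM, so the direction of the whole sum depends on Ighm and on whether genes are weighted by length.

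Among heavy variable segments the highest means belonged to Ighv11-2, Ighv14-4, Ighv3-6 and Ighv1-55, and of these Ighv1-55 alone did not overlap between labels. Ighv11-2 had 58, 17 and 63 counts in KO 1, 2 and 3, against 21, 18 and 104 in WT 1, 2 and 3 (log2 fold change -0.24 ± 0.79, and 1.09 without WT 3). Ighv14-4 had 172 counts in WT 3 and 0 to 10 in every other library, so it was not tested. Ighv3-6 had 60, 102 and 11 counts in KO 1, 2 and 3, against 5, 11 and 13 in WT 1, 2 and 3 (2.43 ± 0.80, adjusted p 0.191 in edgeR and 0.0389 in DESeq2). KO 1 and KO 2 were high, and KO 3 lay among the libraries labelled WT. Ighv1-55 had 51, 31 and 48 counts in KO 1, 2 and 3, against 18, 19 and 24 in WT 1, 2 and 3 (0.93 ± 0.34, adjusted p 0.212).

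Lower in the libraries labelled KO, with the smallest p after Ighm but none passing, were Ighv14-3 (log2 fold change -1.66 ± 0.95), Igkv16-104 (-0.99 ± 0.65), Igkv3-7 (-1.28 ± 0.85), Ighv1-26 (-1.04 ± 0.70) and Igkj4 (-1.19 ± 1.04). Their adjusted p ran from 0.358 to 0.546 in edgeR, and all 5 overlapped between labels. Single libraries moved each of them: without WT 3 Igkv16-104 stood at -0.19, and without WT 1 Ighv1-26 stood at -0.27 and Igkv3-7 at -0.42. With 1 library left out, Ighv14-3 ran from -2.66 to -1.10 and Igkj4 from -2.87 to -0.73, the lowest values without KO 2 for Ighv14-3 and without KO 3 for Igkj4. Ighv1-26 shows the pattern: it had 8, 38 and 13 counts in KO 1, 2 and 3, against 65, 19 and 24 in WT 1, 2 and 3, with WT 1 highest and KO 2 above WT 2 and WT 3.

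Kappa variable segments with the highest means were Igkv14-126, Igkv1-135, Igkv8-19 and Igkv12-89. Igkv14-126 had 415, 127 and 351 counts in KO 1, 2 and 3, against 52, 82 and 584 in WT 1, 2 and 3, and was among the 5 most abundant Igkv segments of all 6 libraries (log2 fold change 0.13 ± 0.97). Igkv1-135 had 651 counts in KO 2 and 13 to 68 in each other library. Igkv8-19 had 456 counts in KO 1 and 1 to 25 in each other library. Their log2 fold changes, 2.62 ± 1.54 and 3.89 ± 1.76, each rest on the 1 library named, and without it were -0.98 and 0.42. Igkv12-89, at 116, 43 and 126 counts in KO 1, 2 and 3 and 62, 31 and 87 in WT 1, 2 and 3, overlapped between labels (0.48 ± 0.50).

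Igkv14-111 and Igkv6-15 had the smallest p among kappa segments that were higher in the libraries labelled KO. Igkv14-111 had 110, 102 and 35 counts in KO 1, 2 and 3, against 10, 5 and 23 in WT 1, 2 and 3 (log2 fold change 2.54 ± 0.66, adjusted p 0.154 in edgeR and 0.00703 in DESeq2). Igkv6-15 had 23, 19 and 133 counts in KO 1, 2 and 3, against 5, 6 and 9 in WT 1, 2 and 3 (2.90 ± 0.83, adjusted p 0.169 in edgeR and 0.0139 in DESeq2). Most of its counts were in KO 3, and without that library the log2 fold change was 1.52. Neither overlapped between labels in CPM, and neither passed in edgeR. Over all 74 Igkv members, 54 had a higher mean CPM in the libraries labelled KO and 6 had every KO library above every WT library (8.11%), and over the 62 Ighv members 38 and 3 did (4.84%), both under the 12.2% of all genes.

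Kappa joining segments were counted at low levels and changed order from library to library. Igkj1 had 2, 57 and 1 counts in KO 1, 2 and 3, against 0, 1 and 31 in WT 1, 2 and 3. Igkj2 had 75, 2 and 36 counts in KO 1, 2 and 3, against 21, 3 and 2 in WT 1, 2 and 3 (log2 fold change 1.95 ± 1.22, 0.88 without KO 1 and 3.74 without WT 1). Igkj4 had 2, 1 and 13 counts in KO 1, 2 and 3, against 15, 17 and 1 in WT 1, 2 and 3. Igkj1 thus led in KO 2 and WT 3, Igkj2 in KO 1, KO 3 and WT 1, and Igkj4 in WT 2, so the leading joining segment did not follow the label. Igkj5 led in no library and overlapped between labels, at 20, 24 and 17 counts in KO 1, 2 and 3, against 7, 13 and 17 in WT 1, 2 and 3 (0.57 ± 0.45). How reads that span a joint were counted is not stated.

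In mice, Iglv1 is known to join mostly to Iglc1 or Iglc3, and Iglv2 and Iglv3 mostly to Iglc2. Totals per gene do not show which segments were joined. Iglv1 had 185, 161 and 207 counts in KO 1, 2 and 3, against 74, 23 and 90 in WT 1, 2 and 3, with no overlap (log2 fold change 1.38 ± 0.46, adjusted p 0.191 in edgeR and 0.0425 in DESeq2). Iglv2 had 189, 29 and 220 counts in KO 1, 2 and 3, against 21, 26 and 624 in WT 1, 2 and 3 (-0.82 ± 1.42, and 2.48 without WT 3). Iglv3 had 3, 9 and 4 counts in KO 1, 2 and 3, against 5, 135 and 5 in WT 1, 2 and 3. Iglv3 was thus 73.4% of lambda variable counts in WT 2 and 0.695% to 5% elsewhere, and Iglv2 was 86.8% in WT 3. In the same libraries Iglc2 took 90.6% of lambda constant counts in WT 2 and 83.3% in WT 3, against 37.1% to 54.1% in the other 4. The joining segments were sparse: Iglj1 had 8, 7 and 16 counts in KO 1, 2 and 3, against 5, 2 and 5 in WT 1, 2 and 3, and Iglj3 2 to 9 in each library. Iglj2 had 22, 10 and 21 counts in KO 1, 2 and 3, against 8, 21 and 43 in WT 1, 2 and 3 (-0.60 ± 0.63).

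Each library had its own leading variable segments, which the map of segment usage shows. Of 139 variable members, 56 had more than 50% of their summed CPM in 1 library, 11, 16 and 9 of them in KO 1, 2 and 3 and 7, 6 and 7 in WT 1, 2 and 3. Members needed only 10 counts in total, so a segment could enter through 1 library, as Igkv2-116 did with 18 counts, all in WT 3. This count therefore does not by itself show usage particular to a library. The leading Ighv segment was Ighv2-2 in KO 1 (11.2% of Ighv counts), Ighv5-17 in KO 2 (18.1%) and Ighv11-2 in KO 3 (10.8%), against Ighv1-26 in WT 1 (13.3%), Ighv7-1 in WT 2 (11.99%) and Ighv14-4 in WT 3 (27.3%). The leading Igkv segment was Igkv8-19 in KO 1 (18.4% of Igkv counts), Igkv1-135 in KO 2 (23.1%) and Igkv14-126 in KO 3 (18.0%), against Igkv19-93 in WT 1 (13.2%), Igkv15-103 in WT 2 (15.5%) and Igkv14-126 in WT 3 (33.2%). No Ighv segment led in more than 1 library, and Igkv14-126 alone led in 2. Ighv2-2, Ighv5-17, Ighv7-1, Igkv19-93 and Igkv15-103 are named as these leaders after their values were seen. KO 2, which led in Ighv5-17, Igkv1-135 and Igkj1, was also the library with the most Igha and Ighg2c, and whether these counts come from the same cells was not tested.

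**Figure D4:**
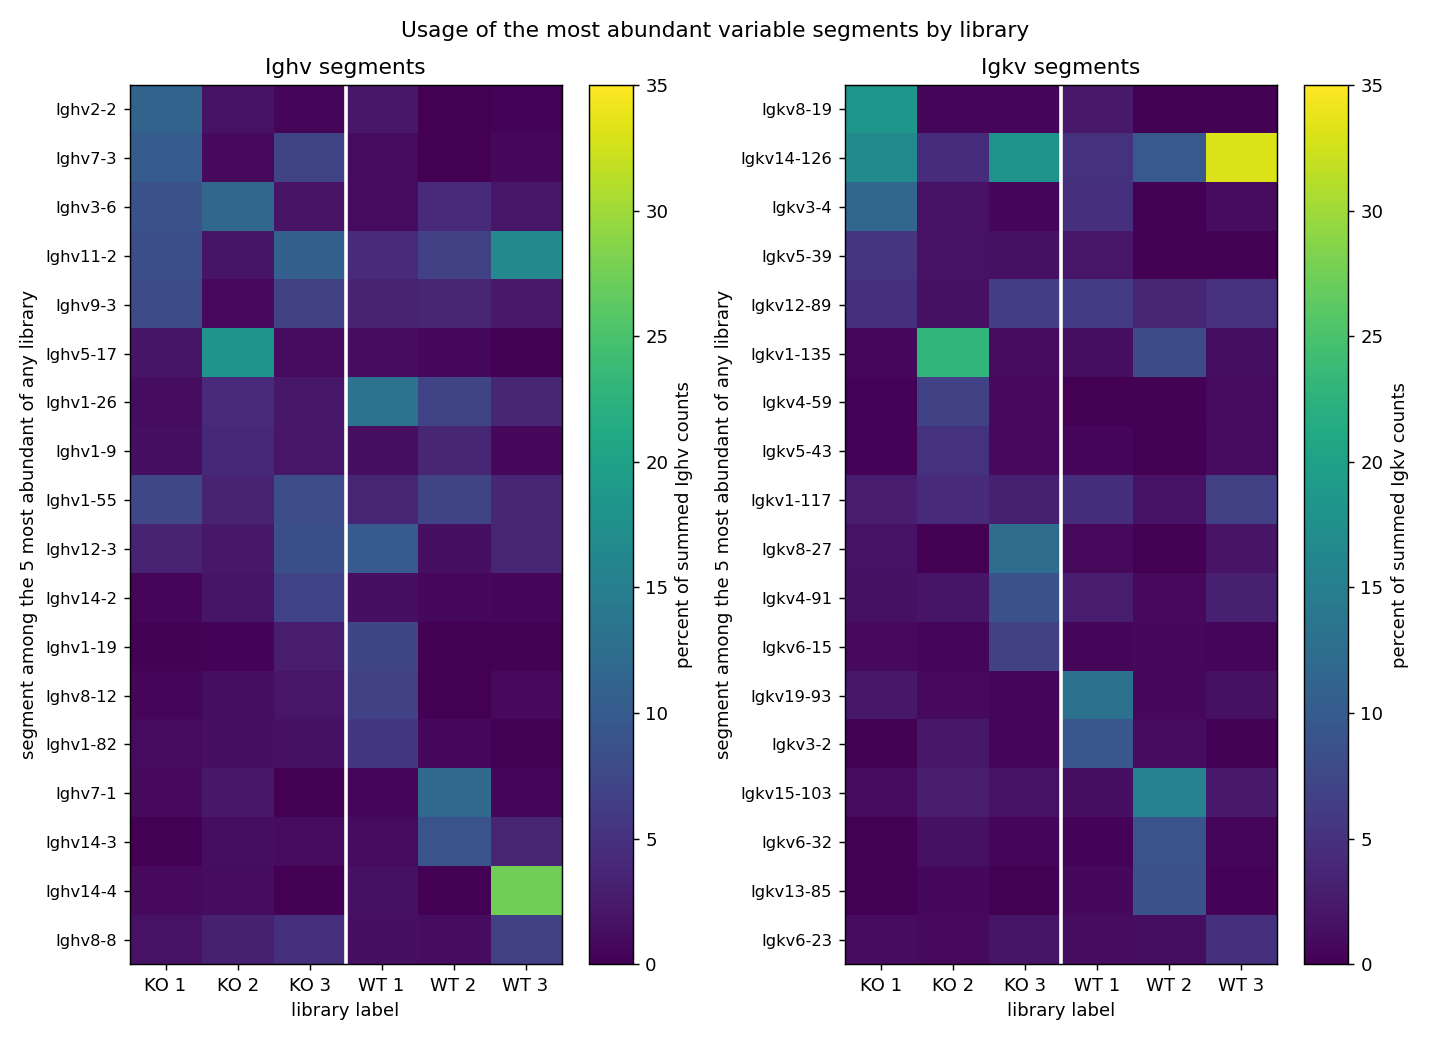
Percent of a library's summed Ighv (left) or Igkv (right) counts held by each segment that was among the 5 most abundant of any library, KO libraries left of the white line and WT libraries right of it. Most bright cells stand alone in a row, such as Ighv14-4 in WT 3 (27.3%) and Igkv1-135 in KO 2 (23.1%), while Igkv14-126 is present in all 6 libraries.

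Segment usage was compared between pairs of libraries, within and across labels. The overlap is the summed smaller share of each segment in a pair of libraries. For Ighv it was 45.3% to 58.7% between libraries labelled KO, 39.3% to 39.9% between those labelled WT and 39.2% to 55.6% across labels. For Igkv it was 38.0% to 48.8% between libraries labelled KO, 40.5% to 50.6% between those labelled WT and 31.1% to 64.0% across labels. The medians for Ighv were 50.1% between libraries labelled KO, 39.8% between those labelled WT and 42.4% across labels, and for Igkv 41.0%, 41.2% and 45.6%, and the differences between these kinds of pair were not tested. The effective number of segments, the inverse Simpson index, was 16.9, 16.5 and 19.8 for Ighv in KO 1, 2 and 3, against 19.3, 18.6 and 8.56 in WT 1, 2 and 3. For Igkv it was 11.3, 13.5 and 13.6 in KO 1, 2 and 3, against 21.0, 13.7 and 7.83 in WT 1, 2 and 3. The labels overlapped in both, and WT 3, where Ighv14-4 and Igkv14-126 led, was lowest in both. Thinned to the smallest library total, 267 Ighv counts, 42.4, 49.6 and 45.8 segments were expected in KO 1, 2 and 3, against 47.6, 35 and 40.2 in WT 1, 2 and 3. Thinned to 841 Igkv counts the numbers were 57.2, 60.9 and 55.3 in KO 1, 2 and 3, against 54.8, 35 and 56.2 in WT 1, 2 and 3. WT 2 held the fewest segments in both loci, and among the other 5 libraries the labels overlapped. It also had the fewest counts in each locus, 267 and 841, although its total over all genes, 72005658, was the highest.

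Summed by family, the first number in a segment's name, which groups segments of similar sequence, usage differed between libraries of 1 label as well. Family 1, the largest Ighv family with 30 members, made up 33.9%, 38.6% and 32.7% of Ighv counts in KO 1, 2 and 3, against 51.5%, 39.7% and 23.1% in WT 1, 2 and 3. Family 5 stood out in KO 2, at 2.91%, 21.1% and 3.42% in KO 1, 2 and 3, against 4.29%, 0.749% and 0.318% in WT 1, 2 and 3. All 14 Ighv families overlapped between labels. Among kappa families, family 4, the largest with 18 members, made up 9.10%, 16.1% and 18.7% of Igkv counts in KO 1, 2 and 3, against 12.1%, 4.16% and 10.96% in WT 1, 2 and 3. Family 8 made up 22.9%, 5.14% and 18.0% in KO 1, 2 and 3, against 8.85%, 8.44% and 8.12% in WT 1, 2 and 3, so the libraries labelled WT lay within the range of those labelled KO. Of 16 Igkv families, 15 overlapped, and the other was family 16, whose sole member Igkv16-104 made up 0.443%, 0.921% and 0.462% in KO 1, 2 and 3, against 1.67%, 1.78% and 2.84% in WT 1, 2 and 3. In CPM the same segment overlapped between labels.

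The segments known from phosphatidylcholine-binding B-1 cells, whose sequences are given above and which were picked after their values were seen, were found in every library. Ighv11-2 made up 8.43%, 1.94% and 10.8% of Ighv counts in KO 1, 2 and 3, against 4.29%, 6.74% and 16.5% in WT 1, 2 and 3. Its partner Igkv14-126 made up 16.7%, 4.50% and 18.0% of Igkv counts in KO 1, 2 and 3, against 5.11%, 9.75% and 33.2% in WT 1, 2 and 3. Both were highest in WT 3 and next in KO 3 and KO 1, and both labels held high and low libraries. Ighv12-3 made up 3.49%, 2.28% and 8.56% of Ighv counts in KO 1, 2 and 3, against 10.02%, 1.498% and 3.66% in WT 1, 2 and 3. Igkv4-91 made up 1.53%, 2.02% and 8.68% of Igkv counts in KO 1, 2 and 3, against 2.85%, 0.951% and 3.12% in WT 1, 2 and 3. KO 3 was high in both of these, while WT 1 was high in Ighv12-3 alone. These are totals per gene over the tissue, so they do not show which heavy and light chains were in the same cell.

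Members lay along the whole of each locus. All 371 rows matched the RefSeq annotation of GRCm38.p6, with 191 on chromosome 12, 168 on chromosome 6 and 12 on chromosome 16. Of the 91 Ighv rows nearest to Ighm 34 were members, and of the 92 rows farther away 28 were. The far rows gave 34.3%, 35.5% and 34.6% of Ighv counts in KO 1, 2 and 3, against 57.9%, 37.1% and 27.5% in WT 1, 2 and 3. The libraries labelled KO lay close together and the libraries labelled WT on both sides of them. Of the 81 Igkv rows nearest to Igkc 42 were members, and of the 81 farther away 32 were. The far rows gave 45.4%, 61.2% and 57.5% of Igkv counts in KO 1, 2 and 3, against 55.9%, 67.9% and 71.6% in WT 1, 2 and 3, which overlapped.

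**Figure D5:**
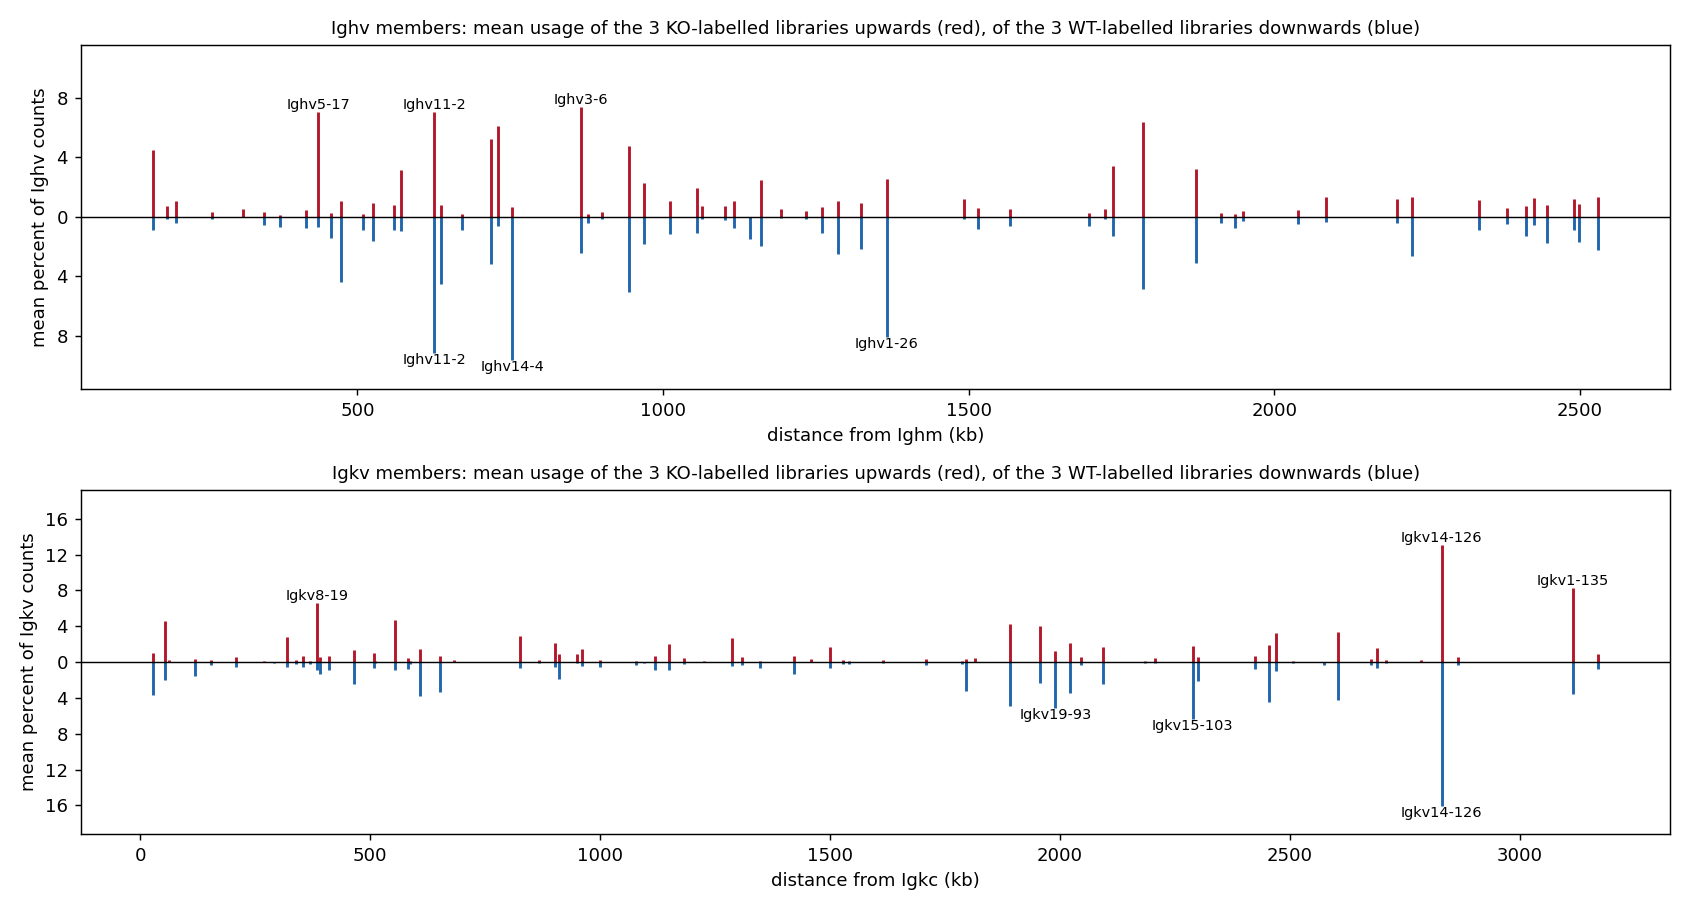
Mean percent of Ighv counts against the distance from Ighm (top) and of Igkv counts against the distance from Igkc (bottom) in kb, with the mean of the 3 libraries labelled KO drawn upwards in red and of the 3 labelled WT downwards in blue. Used segments are spread over both loci, and the tallest line on each side is often 1 library's leading segment, such as Ighv14-4 of WT 3.

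Genes that B cells and plasma cells need beside their antibody genes did not pass in edgeR with all 6 libraries either. Of 18 genes of plasma cells and antibody secretion, 0 passed in edgeR and the median log2 fold change was 0.04, with 9 above 0. Mzb1, a chaperone of IgM assembly, had 1.31, 1.26 and 1.30 CPM in KO 1, 2 and 3, against 0.702, 0.313 and 0.424 CPM in WT 1, 2 and 3 (1.43 ± 0.33, adjusted p 0.143 in edgeR and 0.00735 in DESeq2). Mzb1 did not overlap between labels and lay opposite to Ighm. Of the 18 genes, 2 had every KO library above every WT library and 2 had every KO library below. Among all genes tested 13.7% and 12.5% did. Ell2, an elongation factor that favours the secreted form of the heavy chain, stood at -0.31 ± 0.11, the chaperone Hspa5 at -0.25 ± 0.12 and Irf4, a transcription factor of plasma cells that adipocytes also express, at -1.31 ± 0.48. Hsp90b1 (-0.02 ± 0.11) and Xbp1 (0.12 ± 0.12) were abundant genes that many cell types share.

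Of 18 mature B cell genes 0 passed in edgeR, 17 lay above 0 and the median was 0.27. Ms4a1, which encodes CD20, had 3.86, 4.59 and 5.41 CPM in KO 1, 2 and 3, against 3.803, 1.06 and 1.87 CPM in WT 1, 2 and 3 (1.04 ± 0.42, adjusted p 0.242 in edgeR). Bank1, a signalling adaptor of B cells, stood at 0.51 ± 0.15, Cd79a, part of the B cell receptor, at 0.47 ± 0.45, and Tnfrsf13b, the receptor TACI, at 0.26 ± 0.16. The groups did not overlap for Ms4a1 and Bank1, with WT 1 next to KO 1 for Ms4a1. In this list 2 of 18 genes had every KO library above and 0 had every KO library below, against 13.7% and 12.5% of all genes tested. Genes of B cell precursors were almost absent: Rag1 and Rag2, which cut the segments for joining, and Igll1 and Vpreb2, of the surrogate light chain, had 0 counts in all 6 libraries, and Vpreb1 had 0.0537 to 0.119 CPM. Dntt, which adds bases at joints, was counted in KO 2 alone, at 0.0861 CPM.

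Of 12 tested genes of germinal centres and class switching 0 passed in edgeR and the median was 0.07. Fas stood at -0.44 ± 0.14, S1pr2 at 0.43 ± 0.13, Shld2 at 0.28 ± 0.14, Bcl6 at -0.81 ± 0.41 and Trp53bp1 at 0.10 ± 0.11, and most of these genes are expressed well beyond B cells. Of 12 Fc receptor and antibody transport genes 0 passed in edgeR with all 6 libraries (median 0.32), and Trim21 and Fcer1g passed without KO 1. Trim21, which binds antibody in the cytosol, had 13.7 ± 1.91 CPM in the libraries labelled KO and 8.14 ± 1.11 CPM in those labelled WT (0.75 ± 0.15, adjusted p 0.122 in edgeR, 0.00211 in DESeq2 and 0.0310 in edgeR without KO 1). Fcer1g, the shared signalling chain, stood at 0.40 ± 0.16 (0.56 ± 0.11, adjusted p 0.0458, without KO 1), Ms4a2, the beta chain of the IgE receptor, at 0.97 ± 0.36, Fcgrt, the neonatal Fc receptor, at 0.05 ± 0.11, Fcgr3 at 0.06 ± 0.18 and the inhibitory receptor Fcgr2b at 0.00 ± 0.16.

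Of 11 tested genes of the B cell niche 0 passed in edgeR (median 0.18). Tnfsf13b, which encodes the survival factor BAFF, had 3.40, 4.78 and 4.604 CPM in KO 1, 2 and 3, against 2.56, 2.18 and 2.79 CPM in WT 1, 2 and 3 (0.76 ± 0.19, adjusted p 0.150 in edgeR, 0.0173 in DESeq2 and 0.0421 in edgeR without KO 1). Cxcl13, the chemokine that draws B cells, including B-1 cells, into body cavities and fat, had 10.2, 9.73 and 24.3 CPM in KO 1, 2 and 3, against 6.25, 1.40 and 4.16 CPM in WT 1, 2 and 3 (1.91 ± 0.60, adjusted p 0.191). Both were higher in every library labelled KO, and whether they are linked to the immunoglobulin levels was not tested. In this list 2 of 11 genes had every KO library above and 0 had every KO library below, against 13.7% and 12.5% of all genes tested. Il33 stood at 0.71 ± 0.30, Cxcl12 at 0.10 ± 0.12 and Tgfb1 at -0.20 ± 0.16.

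Markers of other cells are given for the same libraries. Of 4 mesothelial markers, which cover the surface of the pad, all lay above 0, with a median of 0.53 and a sum of 537, 617 and 656 CPM in KO 1, 2 and 3, against 561, 344 and 444 CPM in WT 1, 2 and 3. Wt1 stood at 1.14 ± 0.29, Krt19 at 0.54 ± 0.27, Upk3b at 0.51 ± 0.21 and Msln at 0.06 ± 0.12. None passed in edgeR with all 6 libraries (0 of 4), while Wt1, a transcription factor of mesothelium, passed in DESeq2 (adjusted p 0.00289) and in edgeR without KO 1 (1.35 ± 0.25, adjusted p 0.0413). The mesothelial sum was lowest in WT 2 and WT 3, as were the mature B cell sum and Cxcl13, and its part in the immunoglobulin differences was not tested. Of 5 tested genes in the lymph node list 0 passed in edgeR (median -0.15), and not all of them are particular to stroma. Ltbr stood at -0.28 ± 0.13, Ccl21a at -0.24 ± 0.49, Ltb at 0.20 ± 0.23 and Cnr2 at -0.15 ± 0.28. Glycam1, a marker of lymph node venules, was at 0 in all 6 libraries. Cxcl13, higher in every library labelled KO and given above with the niche genes, also marks lymph node stroma and is not in this list. Ltbr passed without KO 1 (-0.44 ± 0.09, adjusted p 0.0425 in edgeR). Of 10 T cell genes 0 passed in edgeR (median -0.20), with Cd8a at -1.71 ± 0.46, Thy1 at -0.38 ± 0.15, Cd3e at 0.68 ± 0.37, Il7r at 0.26 ± 0.26 and Cd2 at -0.24 ± 0.24. Cd8a was lower in DESeq2 (adjusted p 0.0268). Of 7 adipocyte genes 0 passed in edgeR (median -0.18), with Fabp4 at -0.18 ± 0.16, Cidec at -0.46 ± 0.21, Adipoq at 0.25 ± 0.18, Lep at -1.14 ± 0.49 and Pparg at 0.61 ± 0.14. Pparg passed in DESeq2 (adjusted p 0.00286) and in edgeR without KO 1 (0.71 ± 0.12, adjusted p 0.0316). Lipe, a lipase of adipocytes, overlapped between labels and passed in edgeR without KO 1 alone (-0.62 ± 0.13, adjusted p 0.0478).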

How the data were processed

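Per the labels' protocols, epididymal fat went into RNAlater, Trizol gave the RNA and the library kit was a stranded one for mRNA. Titles gave the groups. HISAT2 2.1.0, StringTie 2.1.3b, Bowtie2 2.3.4.1, FastQC 0.11.7, bcl2fastq 2.20.0 and the build mm10 are listed in the submitters' processing notes, without roles. The authors deposited 1 table with whole-number read counts per gene, which entered every test, and with TPM, scaled by the authors per kilobase and library, which gave the ratios between genes. The deposited FPKM values were not used for a result. Between 21749 and 22644 genes had a count in a library.

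The filter filterByExpr, with a minimum total of 15 and a minimum count of 10, passed 17820 genes. Robust quasi-likelihood fits on the label alone were made with edgeR 4.0.16 in R 4.3.3 after TMM scaling. Two-sided p-values were adjusted by Benjamini-Hochberg over these genes and called at 0.05. A standard error is the log2 fold change over the square root of its F statistic. The scripts were tested on simulated data. DESeq2 1.42.0, limma voom (limma 3.58.1), other scalings, no filter, left-out libraries and a replicate block were alternatives. Shares are of raw counts, with exact binomial 95% intervals. Every pair of libraries differed beyond sampling noise, with a chi-square per degree of freedom of 50.2 or more. The biological coefficient of variation was 0.200.

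The members and the accessory gene lists were chosen with earlier results of these data known. The genes named are Pak4, every constant and joining member, the 4 variable segments with the highest mean CPM of each locus, the 6 tested members with the smallest p in each direction, and of each list the 3 most abundant genes and the 3 with the smallest p. Genes named outside this rule are said to be so or stand as neighbours, edges of the rule or markers at 0.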

Additional observations from a re-analysis of the deposited data

How the results depend on the processing

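No immunoglobulin gene passed in edgeR under another scaling (RLE, or library size alone), without the filter on low counts, in limma voom or with a replicate block, while DESeq2 called 5 members and 6 accessory genes. DESeq2 called 1152 genes in all, limma voom 5, and edgeR with the replicate block 1, against 3. Deviations of same-numbered libraries correlated at -0.17, -0.02 and 0.05, within the -0.19 to 0.19 of differently numbered ones, so no pairing by number was seen. With 3 libraries per label, such correlations cannot show that a shared litter or day was absent. Under the block 0 members passed, with a median of 0.67 over the tested members. With 1 library left out, the count of genes ran from 1 to 1016, of members from 0 to 1 and of accessory genes from 0 to 7, the highest of each without KO 1. The median of the tested members ran from 0.42 to 1.23, the highest without WT 3, and was 0.68 over those with 100 or more counts. Pak4 passed in DESeq2 (log2 fold change 0.95, adjusted p 8.49e-06) and without KO 1, and its log2 fold change ran from 0.85 to 1.06 with 1 library left out (adjusted p 0.0313 to 0.403).

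Log2 ratios of summed CPM with 1 library left out ran from -1.11 to -0.77 for heavy constant, 0.57 to 1.08 for kappa constant, -0.45 to 0.49 for lambda constant, 0.16 to 0.77 for Ighv, 0.61 to 1.24 for Igkv and -0.61 to 1.12 for lambda variable genes, the last value without WT 3. Other scalings and TPM moved none of these sums by more than the spread between libraries. Leaving out each library for the shares was chosen after seeing the data: the difference of libraries labelled KO minus WT ran from -9.76 to -2.34 percentage points for Ighm of heavy constant, -14.7 to 17.2 for Igha of switched and -11.9 to -3.60 for lambda of light constant counts. For the effective number of segments it ran from -1.17 to 4.20 for Ighv and -4.53 to 2.06 for Igkv. TPM, members with 100 or more counts, or leaving out each library's leading segment moved these differences by less than the spread.

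Of 29 named members with a test, 9 changed sign under at least 1 of 12 alternatives, none of them past the threshold. Ighg2b stood at 0.11 with library size alone, 0.45 in limma voom and 0.29 with the replicate block, Ighg2c at -0.17 in limma voom and -0.69 with the block, Ighv11-2 at 0.080 and 0.018, and Iglv2 at 0.48 and 0.27. With 1 library left out, Igha ran from -0.65 to 1.502, Ighd from -0.14 to 0.24, Ighg2b from -0.55 to 1.17, Ighg2c from -2.34 to 1.48, Ighv11-2 from -0.65 to 1.09, Igkv1-135 from -0.98 to 3.52, Igkv14-126 from -0.34 to 2.02, Iglj2 from -1.01 to 0.16 and Iglv2 from -1.35 to 2.48. Ighm kept its sign in all 12, from -1.23 to -0.90. The causes of these changes were not tested.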
